A study of Caenorhabditis elegans with 2 samples.

Results

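On the X chromosome, 2506 of 2771 peaks of REC-8::GFP lay away from small RNA genes, and these are described here beside the 15548 autosomal peaks of the same kind. A peak qualified when no start of a tRNA, snoRNA or snRNA gene lay within 500 bp of its summit, in the peak list called on both replicates together. No signal value entered that choice. The same rule left out 265 X peaks (9.56%) and 612 of 16160 autosomal peaks (3.79%). The whole pooled list held 18953 peaks, of which 18931 were on the 6 nuclear chromosomes. It is a relaxed list, deposited as peaks and background for use as input to a reproducibility analysis. An entry of it is called a peak here but need not be a site of REC-8 binding. The lowest signal in it was 23.6 on X and on the autosomes.

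Chromatin immunoprecipitation followed by sequencing (ChIP-seq) was done on whole hermaphrodites of Caenorhabditis elegans strain YL563. The strain stably expresses REC-8 fused at its C terminus to a GFP-FLAG tag, and the labels name an antibody against GFP in one place and rec-8 as the antibody in another. Animals were young adults, collected 48 hours after synchronization as starved L1 larvae. There was 1 group of 2 biological replicates and no second condition, so each set of X peaks was compared with its autosomal counterpart within the same libraries. The strain is 1 transgenic line. Whole animals contain both germ line and soma, and no cell type can be assigned to a peak. No control library was analysed here. Sequencing depth is unknown, since no read counts come with the peak lists.

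REC-8 is a meiotic kleisin, a subunit that closes the cohesin ring around sister chromatids in germ cells. The X chromosome of hermaphrodites has a chromatin state of its own. Most X genes are little expressed in the germ line, whereas in somatic cells a condensin-based dosage compensation complex is recruited to X at recruitment sites and lowers transcription from both X chromosomes. A short sequence called MEX (motif enriched on X) is a known feature of those recruitment sites, and its core GCGCAGGG is used below as one of 6 sequences searched at the summits.

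Of the 22 X peaks of highest pooled signal, 15 were intergenic and 9 contained the MEX core. The core is shown in capitals at each of its 12 occurrences within 100 bp of those 9 summits, in 60 bases read 5′ to 3′ on the strand that carries GCGCAGGG. Each sequence is named by the gene with the nearest annotated start, which need not be the gene that the site acts on. Coordinates are on ce11, the same assembly as WBcel235.
W02H3.t1 site 1 (chrX:11094099-11094158, minus strand): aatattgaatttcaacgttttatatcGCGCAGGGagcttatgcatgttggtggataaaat
W02H3.t1 site 2 (chrX:11094200-11094259, minus strand): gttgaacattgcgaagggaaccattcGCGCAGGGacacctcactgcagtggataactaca
gtr-1 site 1 (chrX:806648-806707, plus strand): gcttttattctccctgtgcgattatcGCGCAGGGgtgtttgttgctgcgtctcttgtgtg
gtr-1 site 2 (chrX:806724-806783, plus strand): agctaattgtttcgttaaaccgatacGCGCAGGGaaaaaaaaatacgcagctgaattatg
C41A3.6 (chrX:5429564-5429623, plus strand): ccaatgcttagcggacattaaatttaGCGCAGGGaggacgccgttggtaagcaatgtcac
T26C11.3 (chrX:1837866-1837925, plus strand): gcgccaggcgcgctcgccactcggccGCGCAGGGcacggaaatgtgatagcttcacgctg
ins-39 (chrX:1345030-1345089, plus strand): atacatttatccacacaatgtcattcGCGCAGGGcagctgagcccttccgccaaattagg
T24D8.6 (chrX:2364873-2364932, minus strand): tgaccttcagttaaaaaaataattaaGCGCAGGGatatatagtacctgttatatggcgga
F22H10.2 (chrX:16682146-16682205, minus strand): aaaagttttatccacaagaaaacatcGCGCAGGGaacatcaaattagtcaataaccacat
cest-16 site 1 (chrX:6296522-6296581, plus strand): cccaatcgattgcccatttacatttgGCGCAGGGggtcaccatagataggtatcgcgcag
cest-16 site 2 (chrX:6296550-6296609, plus strand): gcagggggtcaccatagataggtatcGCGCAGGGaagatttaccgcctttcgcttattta
F20B6.9 (chrX:4209240-4209299, minus strand): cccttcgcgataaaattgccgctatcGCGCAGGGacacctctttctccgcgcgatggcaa

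In the 4 bases before and after the core, these sites also shared letters that were not part of the search. Only the core of MEX was searched, and the flanking letters were not compared with the full motif. The base just before the core was C at 9 of the 12 sites, and the base before that was T at 9 of the 12. The base just after the core was A at 8 of the 12. Over all 81 occurrences of the core on X, peaks or not, C preceded the core at 33, T stood 1 position further out at 38, and A followed at 34. Over the 233 autosomal occurrences, C preceded the core at 44, T stood 1 position further out at 74, and A followed at 79.

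For comparison, the core is shown in the same way at the 4 X peaks of lowest signal that contain it. These were near Y15E3A.5 (28.9, 80 bp from the core), lin-14, a heterochronic gene that times larval cell divisions (26.9, 84 bp), F52G3.4 (26.5, 22 bp) and K01A12.2 (25.6, 79 bp). C preceded the core at 2 of these 4 too, Y15E3A.5 and F52G3.4, and A followed it at F52G3.4 and K01A12.2.
Y15E3A.5 (chrX:15340905-15340964, minus strand): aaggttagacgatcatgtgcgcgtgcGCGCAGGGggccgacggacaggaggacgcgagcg
lin-14 (chrX:11479257-11479316, minus strand): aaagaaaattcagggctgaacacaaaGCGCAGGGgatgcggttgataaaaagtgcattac
F52G3.4 (chrX:16951610-16951669, minus strand): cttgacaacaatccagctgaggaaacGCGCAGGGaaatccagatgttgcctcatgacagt
K01A12.2 (chrX:8613785-8613844, plus strand): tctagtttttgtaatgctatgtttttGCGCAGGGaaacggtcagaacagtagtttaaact

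Signal, the value that the authors' caller gave each peak, was used only within a list. Among X peaks it had a median of 29.8 (quartiles 26.2 and 35.6) and a maximum of 226.8, against a median of 30.8 (quartiles 26.6 and 37.7) and a maximum of 309.1 on the autosomes. The ratio of medians, X over autosomes, was 0.968 in the pooled list, 0.973 in replicate 1 and 0.964 in replicate 2, and X had the lowest median of the 6 chromosomes in all 3 lists. The upper tail was thinner on X as well. Of the 500 nuclear peaks of highest pooled signal, 18 were X peaks of this kind (0.718% of them) and 203 were autosomal ones (1.31%). The corresponding counts were 24 and 216 in replicate 1, and 18 and 221 in replicate 2. With 1 X chromosome against 5 autosomes, an exact permutation over chromosomes cannot give a two-sided p below 0.167, so differences between X and the autosomes are given with intervals and with both replicates, not with a p-value. All intervals are exact 95% binomial (Clopper-Pearson) intervals and cover the counting of peaks only.

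The authors' reproducible set contained 22 of the X peaks (0.878%, 0.551 to 1.33) and 251 of the autosomal ones (1.61%, 1.42 to 1.82), where 3.08% of all nuclear peaks were in it. Its 584 nuclear peaks were exactly those of highest pooled signal, from 80.6 upward, so membership is a statement about signal. The 22 X peaks are therefore also the 22 of highest signal among the X peaks described here.

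The strongest was at C14F11.14, an unclassed non-coding RNA gene whose start lay 21 bp from the summit at chrX:6207742-6207956. Its signal was 226.8 in the pooled list, 111.9 in replicate 1 and 110.0 in replicate 2, and its rank among all nuclear peaks was 22, 28 and 30. The nearest protein-coding start was that of T13C5.6, at 169 bp. Next came an intergenic peak 1521 bp from the tRNA gene W02H3.t1, with 2 MEX cores and signals of 146.6 pooled, 65.3 in replicate 1 and 89.6 in replicate 2. The peak near ZK899.10, also intergenic and without a core, had 143.3 pooled, 51.4 in replicate 1 and 86.6 in replicate 2. In both replicates C14F11.14 had the highest signal of the 22.

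Of the other 8 peaks with the core, 7 had summits between positions 806692 and 6296552 of X and 1, near F22H10.2, at 16682115. The peak 3914 bp from gtr-1, which encodes a G protein-coupled receptor, held 2 cores and had signals of 133.8 pooled, 75.3 in replicate 1 and 61.4 in replicate 2. The peak with nearest start C41A3.6 lay inside an exon of pks-1, a polyketide synthase gene, and had 124.2 pooled, 83.5 in replicate 1 and 50.2 in replicate 2. The peak 729 bp from ins-39, an insulin-like peptide gene, had 106.5 pooled, 44.2 in replicate 1 and 66.6 in replicate 2. The median X peak had 19.2 in the list of replicate 1 and 15.4 in that of replicate 2, below each of these 3.

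Another held 2 cores inside an intron of mom-1, a gene needed to secrete Wnt ligands. The gene with the nearest start to it was cest-16, a carboxylesterase gene, and its signal was 88.4 pooled, 49.6 in replicate 1 and 45.7 in replicate 2. Peaks near the pseudogene T26C11.3 (111.8 pooled, 49.5 and 61.1 in replicates 1 and 2), T24D8.6 (94.0 pooled, 48.6 and 48.8), F22H10.2 (93.0 pooled, 56.7 and 38.03) and F20B6.9 (84.2 pooled, 30.6 and 57.6) completed the 9. In each replicate's own list, all 9 were above the median X peak. That is no separate support, because the 9 have high pooled signal, and the pooled list shares its reads with both replicates.

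Of the 13 without the core, 3 lay within 500 bp of a protein-coding start, at C14F11.14, ZK816.8 and hsp-3. At hsp-3, which encodes the endoplasmic reticulum chaperone BiP, the summit lay 22 bp from the start, and the signal was 84.4 pooled, 46.7 in replicate 1 and 40.7 in replicate 2. A peak 923 bp from ain-1, whose product works with microRNAs in gene silencing, had 92.7 pooled and 57.9 in replicate 2. The nearest replicate 1 summit to it lay 128 bp away, with a signal of 35.9. The peak near F19H6.5 also missed the 100 bp limit in replicate 1, with a summit 102 bp away and a signal of 57.0 there, against 107.5 pooled and 68.6 in replicate 2. The other 20 of the 22 had a summit within 100 bp in both replicates.

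MicroRNA and other non-coding RNA genes were the nearest genes to several more. A peak 177 bp from the microRNA gene cel-mir-239a had 85.2 pooled, 54.6 in replicate 1 and 30.7 in replicate 2. A peak 1272 bp from cel-mir-2221 had 105.0 pooled, 38.8 in replicate 1 and 63.8 in replicate 2. At F58A3.6, an unclassed non-coding RNA gene inside ldb-1, which encodes a LIM-domain-binding protein, the signal was 112.9 pooled, 51.1 in replicate 1 and 59.7 in replicate 2. The remaining peaks, with nearest starts of T27A8.8, fbxb-58, F55G7.5, ZK816.8 and T05A10.8, ranged in pooled signal between 82.3 and 106.7. T27A8.8 is a snoRNA gene 773 bp away, just outside the 500 bp limit used to choose the peaks. The peak near cel-mir-239a was closer to that limit, with a tRNA, snoRNA or snRNA start 565 bp from its summit.

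**Figure D1:**
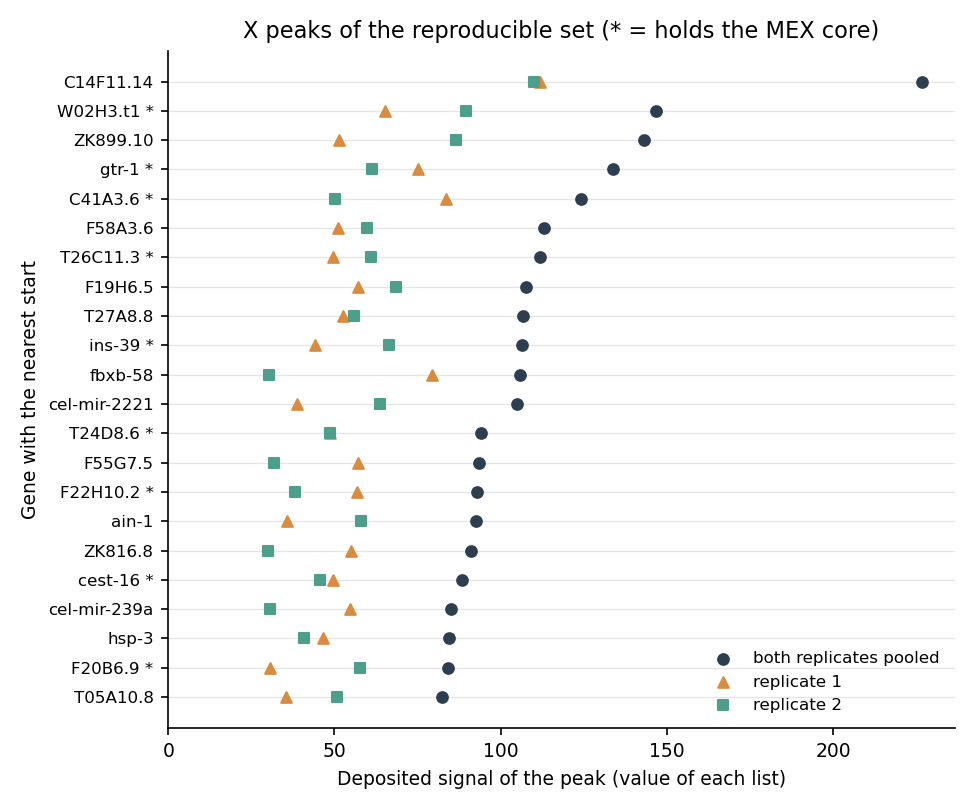
Signal of the 22 X peaks of the reproducible set (horizontal axis) in the pooled list, replicate 1 and replicate 2, one row per peak, labelled by the gene with the nearest start; an asterisk marks the 9 with the MEX core. Signals are on each list's own scale, and C14F11.14 stands apart at 226.8 in the pooled list while the other 21 lie between 82.3 and 146.6.

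Sequences of 2 of the peaks without the core are given next, as 120 bases around the summit on the plus strand. Capitals mark GAGAGA, the GA repeat, which 8 of the 22 held on either strand within 100 bp of the summit (36.4%, 17.2 to 59.3) against 49 of the 251 autosomal peaks of the set (19.5%). Among all the peaks the GA repeat was at 13.9% on X and at 13.6% on the autosomes.
ZK899.10 (chrX:9465815-9465934, plus strand): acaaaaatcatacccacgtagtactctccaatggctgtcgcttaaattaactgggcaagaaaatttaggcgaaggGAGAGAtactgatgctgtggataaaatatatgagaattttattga
hsp-3 (chrX:6092042-6092161, plus strand): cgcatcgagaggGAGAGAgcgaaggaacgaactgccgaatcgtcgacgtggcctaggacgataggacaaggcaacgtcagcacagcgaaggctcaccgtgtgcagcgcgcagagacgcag

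The MEX core was found within 100 bp of the summit at 22 of the 2506 X peaks (0.878%, 0.551 to 1.33) and at 18 of the 15548 autosomal peaks (0.116%, 0.0686 to 0.183). Over all nuclear peaks the share was 0.259%. Windows of 200 bp tiled along the chromosomes held it in 0.0869% of cases on X and 0.0538% on the autosomes. In windows 1000 bp to the left and to the right of the X summits, 0 of 2506 held it on either side, which allows at most 0.147%. GCGCAGGG was searched on both strands, and a match describes letters only.

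The core was concentrated at X peaks of high signal. It was present at 9 of the 22 X peaks in the reproducible set (40.9%, 20.7 to 63.6) and at 0 of the 251 autosomal ones (up to 1.46%). The same count was found in the 22 X peaks of highest signal of each replicate's own list, 9 in replicate 1 and 9 in replicate 2, where the 251 highest autosomal peaks held 0 in either. Of those 9 and 9, 5 were at the same summit within 100 bp. Among the 100 X peaks of highest pooled signal 13 held the core, and among the other 2406 only 9 did (0.374%). The 22 X peaks with the core had a median signal of 62.6 and the 2484 without it 29.7. On the autosomes the medians were 33.3 with the core and 30.8 without it.

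A summit lay within 100 bp in both replicates' lists at 14 of the 22 X peaks with the core (63.6%), against 17.7% of the X peaks without the core and 0 of the 18 autosomal peaks with it. Matches rose with signal among X peaks as a whole, and the part of signal in this difference was not tested. By gene context 13 of these 22 were intergenic, 6 lay in an intron, 1 in an exon and 2 at a protein-coding start. The next after the reproducible set was 718 bp from nspc-17, a gene of a nematode-specific peptide family, with signals of 78.3 pooled, 33.6 in replicate 1 and 48.0 in replicate 2.

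The core was also counted from the genome sequence. Of the 81 occurrences of the core on X (4.57 per Mb), 25 lay within 100 bp of an X summit (30.9%, 21.1 to 42.1), and 12 of those were at the reproducible set. Of the 233 on the autosomes (2.82 per Mb), 18 lay within 100 bp of a summit (7.73%, 4.64 to 11.9), and 0 were at the reproducible set. Occurrences on X preceded by C were at a peak in 17 of 33 cases, and those preceded by another base in 8 of 48. On the autosomes the counts were 4 of 44 and 14 of 189. The split by preceding base was chosen after the values were seen, from the 12 sites printed above, and those are included. Without them the X counts were 8 of 24 with C and 5 of 45 with another base, given as a description.

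Of the other sequences, the GA repeat was also more frequent at X peaks of high signal, at 27 of the first 100 (interval 18.6% to 36.8%) and at 13.3% of the other 2406. It was at 17 of the first 100 autosomal peaks and at 13.6% of the rest. The GC box CCGCCC was at 5.03% of X peaks and 5.78% of autosomal ones. In the reproducible set it was at 0 of the 22 (up to 15.4%) against 29 of the 251. Among the first 100 X peaks it was at 11 (interval 5.62% to 18.8%), against 4.78% of the other 2406. On the autosomes it was at 10 of the first 100 and at 5.75% of the rest. The tRNA-type B box core GGTTCGA was at 1.52% of X and 1.78% of autosomal peaks, near the 1.32% and 1.47% of tiled windows. It was more frequent at high signal, at 6 of the first 100 X peaks (interval 2.23% to 12.6%) and 1.33% of the others. On the autosomes it was at 8 of the first 100 and at 1.74% of the rest. In the reproducible set it was at 1 of the 22 and 17 of the 251. No other form of the B box was in that search. The E-box CATATG was at 4.35% of X and 3.43% of autosomal peaks, where tiled windows gave 4.39% and 3.70%. The repeat TTGGTCAGT, found in the X pairing centre region, was at 7 X peaks (0.279%) and 16 autosomal peaks (0.103%), below the 0.412% of X windows and the 0.138% of autosomal windows.

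Within the 22, the words of 8 letters were also counted without choosing a motif first, a count made after the values were seen. Of the 27 words that 4 or more of the 22 held, the core had the largest ratio to tiled X windows. A second word, GCGAAGGG, differs from the core at 1 letter and was at 6 of the 22 (27.3%, 10.7 to 50.2), at 18 of all 2506 X peaks (0.718%) and at 0 of the 251 autosomal peaks of the set. Tiled X windows held it in 0.150% of cases. With either word, 11 of the 22 were counted (interval 28.2% to 71.8%), and 4 held both. Because the words were picked from these 22, the share among them is a description.

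A different stretch joined 2 of the 3 X peaks of the set within 500 bp of protein-coding starts, C14F11.14 and ZK816.8. Both summits were nearer to the start of a non-coding RNA gene, at 21 and 14 bp. Their nearest protein-coding starts were at 169 and 259 bp. The summits at C14F11.14 and at ZK816.8 shared 34 bases, and a search of the nuclear genome found the stretch 3 times on X and 0 times on the autosomes. The third copy was at K02D3.5, also an unclassed non-coding RNA gene with its start 12 bp from a summit. The pooled signals were 226.8 at C14F11.14, 91.2 at ZK816.8 and 37.2 at K02D3.5. The replicate signals were 111.9, 55.1 and 19.8 in replicate 1 and 110.0, 30.1 and 22.7 in replicate 2, in the same order in both. The 34 bases are the longest exact run that C14F11.14 and ZK816.8 share within 100 bp of their summits. The 3 loci are printed with the shared 34 bases in capitals, preceded by 80 bases. Much of those 80 bases is also the same at all 3 loci, so the likeness extends beyond the 34. Upstream of the stretch all 3 held GGTTCAA. The only form of the B box core searched above was GGTTCGA, with 1 of 7 letters different. That search would therefore not have counted a B box written with GGTTCAA. Of the 2506 X peaks 64 held GGTTCAA. Its share over autosomal peaks or tiled windows was not computed, so the count cannot show whether it is frequent at X peaks.
C14F11.14 (chrX:6207839-6207952, plus strand): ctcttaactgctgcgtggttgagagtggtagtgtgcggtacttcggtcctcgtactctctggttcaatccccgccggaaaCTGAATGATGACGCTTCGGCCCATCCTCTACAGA
ZK816.8 (chrX:3348034-3348147, plus strand): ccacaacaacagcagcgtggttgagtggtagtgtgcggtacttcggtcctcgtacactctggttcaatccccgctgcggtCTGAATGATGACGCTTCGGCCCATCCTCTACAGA
K02D3.5 (chrX:13697676-13697789, plus strand): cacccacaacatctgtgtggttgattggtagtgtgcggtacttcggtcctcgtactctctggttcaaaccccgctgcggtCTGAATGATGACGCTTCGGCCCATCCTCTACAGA

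X had the fewest peaks per Mb of any chromosome. The density was 141.4 per Mb on X and 188.3 per Mb on the autosomes together, which ran between 152.0 on V and 227.5 on III. The ratio of X to the autosomes was 0.751 in the pooled list, 0.854 in replicate 1 and 0.750 in replicate 2. X was the lowest of the 6 in each list, but in replicate 1 the margin to chromosome V was small, with 177.4 on X and 178.0 on V. X supplied 13.9% of these peaks (13.4 to 14.4) from 17.7% of the nuclear length. Per protein-coding gene the ratio was 1.02 in the pooled list, 1.16 in replicate 1 and 1.02 in replicate 2, so the deficit per Mb was not seen per gene.

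**Figure D2:**
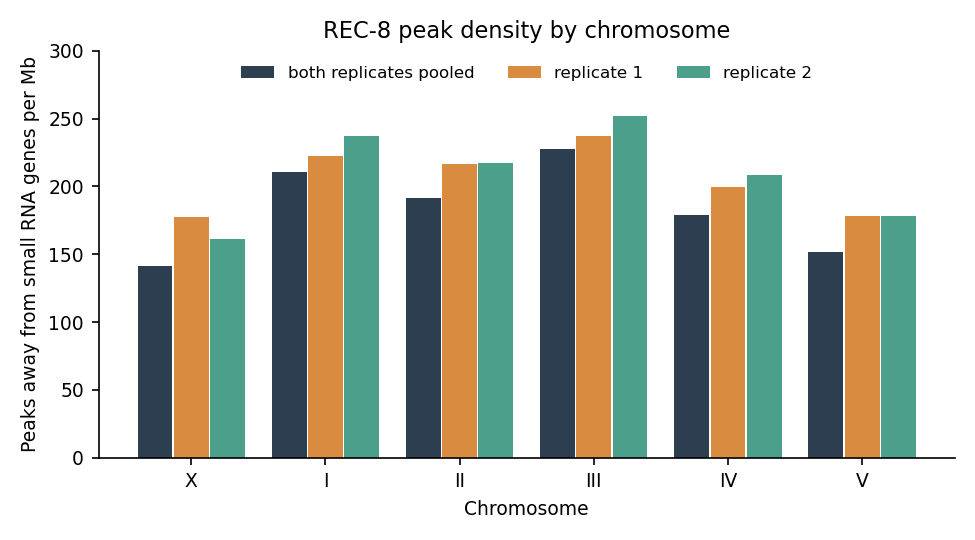
Peaks away from small RNA genes per Mb (vertical axis) on X and on each autosome, from the pooled list and from each replicate. X is at 141.4, 177.4 and 161.0 per Mb and is the lowest of the 6 chromosomes in each list.

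Unlike on the autosomes together, the centre of X had no excess of peaks. In 10 equal parts of its length the density was lowest between 50% and 60% (118.5 per Mb) and highest between 80% and 90% (177.8 per Mb). The place of the maximum was the same in both replicates, but the minimum was at 0% to 10% in replicate 1 (155.2 per Mb) and at 40% to 50% in replicate 2 (140.0 per Mb). The autosomes together were highest between 60% and 70% (219.7 per Mb) and lowest between 10% and 20% (150.3 per Mb). The central 33.3% of X held 31.0% of its peaks (29.2 to 32.8), against 36.9% on the autosomes (36.2 to 37.7), where each autosome lay between 34.7% and 40.3%. The share was 32.7% on X and 36.5% on the autosomes in replicate 1, and 32.7% against 37.6% in replicate 2. In both replicates the interval for X included 33.3%. So did the interval for II in the pooled list (share 34.7%) and in replicate 1 (34.2%), and that for V in replicate 1 (34.7%). The right 33.3% of II held 39.1% of its pooled peaks, more than its centre. An interval that included 33.3% was therefore not particular to X, although X had the lowest central share in each list. The median signal in these parts of X stayed between 28.6 and 30.8. Neighbouring X summits were a median of 4019 bp apart, against 2717 bp on the autosomes. The longest stretch of X without one ran for 104125 bp, between the summits at 196691 and 300816. Of the X peaks 99.96% were 430 bp wide, so width carried no information.

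**Figure D3:**
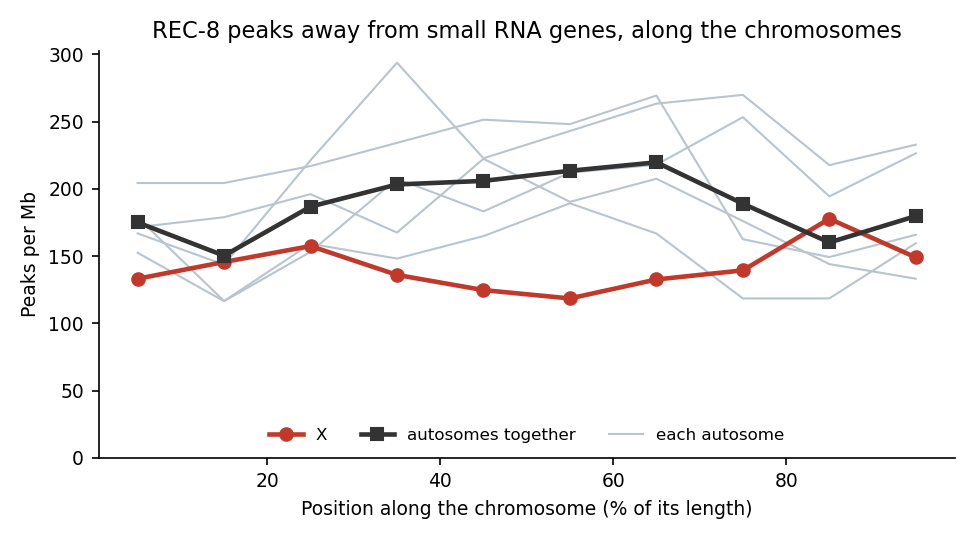
Peaks per Mb (vertical axis) in 10 equal parts of the chromosome, given as percent of its length (horizontal axis), for X, the autosomes together and each autosome. X is at 118.5 at 50% to 60%, where the autosomes together are at 213.4, and at 177.8 at 80% to 90%, where they are at 160.1.

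X peaks were less often at protein-coding starts than autosomal peaks. Within 500 bp of such a start were 24.0% of X summits (22.4 to 25.7) and 33.6% of autosomal ones (32.9 to 34.4), and each autosome lay between 31.7% and 35.0%. Gene starts are sparser on X, where 18.9% of tiled windows met the same criterion, against 24.1% on the autosomes. Relative to the windows, the share was 1.27 times as high on X and 1.39 times on the autosomes. Intergenic summits were 26.5% on X and 18.95% on the autosomes, 0.819 and 0.728 times the share of windows. Exons held 18.4% of X summits and 24.1% of autosomal ones. Introns held 533 of the X summits (21.3%) and 2954 of the autosomal ones. The median distance to a protein-coding start was 1323 bp on X and 948 bp on the autosomes. By context the median X signal differed little, between 29.2 in exons and 30.6 at non-coding RNA starts.

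In the reproducible set the gene context of X and autosomal peaks differed widely. Intergenic were 15 of 22 X peaks (68.2%, 45.1 to 86.1), against 31 of 251 autosomal ones (12.4%, 8.55 to 17.1). At protein-coding starts were 3 of 22 on X (13.6%, 2.91 to 34.9) and 171 of 251 on the autosomes (68.1%, 61.97 to 73.8). On X, C14F11.14 and ZK816.8 were counted there although a non-coding RNA start was nearer, because protein-coding starts were assigned first. How many of the 171 were alike in this was not counted. Among peaks in the highest 10% of nuclear pooled signal, 46 of 122 X peaks were intergenic (37.7%, 29.1 to 46.9) and 34 were at protein-coding starts (27.9%, 20.1 to 36.7), against 198 (15.8%) and 664 (53.1%) of 1250 autosomal peaks. The share at protein-coding starts was thus higher there than over all peaks on both, but by less on X, and on X its interval included the share over all peaks. The replicates' own highest peaks gave a wider range on X. Of the 22 highest X peaks of replicate 1, 9 were intergenic and 6 at protein-coding starts, and of those of replicate 2, 14 were intergenic and 2 at protein-coding starts. Of the 251 highest autosomal peaks, 36 were intergenic in replicate 1 and 28 in replicate 2, and 142 and 185 were at protein-coding starts. Of the 22 highest X peaks of replicate 1, 9 had a summit within 100 bp among the 22 of replicate 2.

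**Figure D4:**
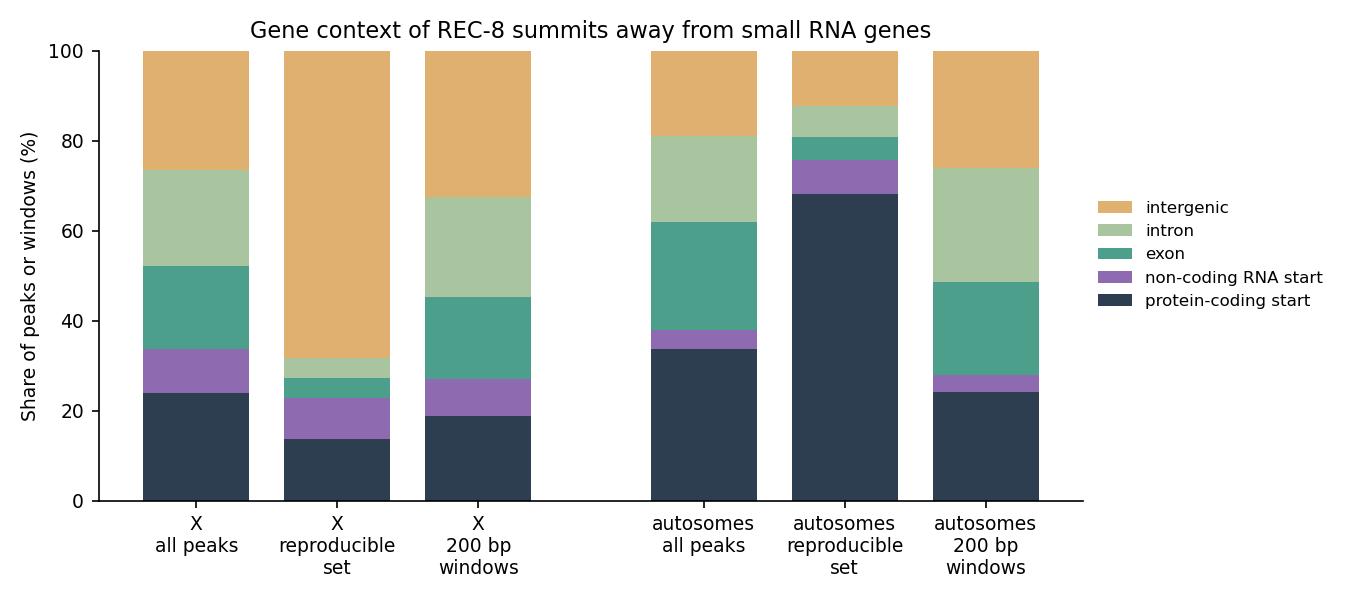
Share of summits or 200 bp windows (vertical axis, percent) in 5 gene contexts, for X on the left and the autosomes on the right, each with all peaks, the reproducible set and tiled windows. The intergenic part is 68.2% in the 22 X peaks of the set and 12.4% in the 251 autosomal ones.

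Non-coding RNA genes other than the small RNA genes set apart were near more of the X peaks. Of the X summits 9.78% lay within 500 bp of the start of one but not of a protein-coding start, against 4.27% of the autosomal ones. Tiled windows differed likewise, and the shares were 1.199 and 1.095 times those of the windows. Unclassed non-coding RNA genes, of which X has 2520, were within 500 bp of 327 X peaks (13.0%), against 896 autosomal peaks (5.76%). Seen from the genes, 17.5% of those on X and 19.4% of those on the autosomes were at such a peak. Of the 74 microRNA genes on X, 17 were at a peak, against 70 of 187 on the autosomes. Around the 500 bp limit itself, 10 X peaks lay 250 to 500 bp from a small RNA gene, with a median signal of 30.2, and 12 lay 500 to 750 bp away, with a median of 27.7. The 255 X peaks closer than 250 bp had a median of 81.1.

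X peaks recurred in the replicates more often the higher their signal, as autosomal peaks did. Of the X peaks 54.9% (52.9 to 56.9) had a replicate 1 summit within 100 bp, against 55.5% of the autosomal peaks (54.7 to 56.3) and 56.5% of all nuclear peaks, so X did not stand apart there. In replicate 2 the share was 43.7% on X (41.7 to 45.7), against 48.7% on the autosomes (48.0 to 49.5) and 49.5% of all nuclear peaks. Both replicates had a summit for 18.1% of X peaks and 21.4% of autosomal ones, and neither had one for 19.5% and 17.2%. Of the 265 X peaks at small RNA genes, 68.7% were matched in both. Matched X summits lay a median of 16 bp away in replicate 1 and 15 bp in replicate 2.

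When peaks were split by pooled signal into 10 classes, the intervals of X and the autosomes overlapped in 10 of 10 classes for replicate 1 and in 9 of 10 for replicate 2. In the lowest class 33.8% of X peaks and 34.3% of autosomal ones were matched in replicate 1, and 25.3% and 27.5% in replicate 2. In the highest class 85.2% of X peaks (122 peaks) and 86.96% of autosomal ones (1250 peaks) were matched in replicate 1. In replicate 2 the highest class gave 79.5% on X (71.3 to 86.3) and 88.7% on the autosomes (86.8 to 90.4), with intervals that did not overlap. In that class 18.03% of X peaks and 20.1% of autosomal peaks belonged to the reproducible set. The replicates are separate biological samples per the labels, but both lists share their reads with the pooled list, so a match is not an independent repeat of the pooled call.

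**Figure D5:**
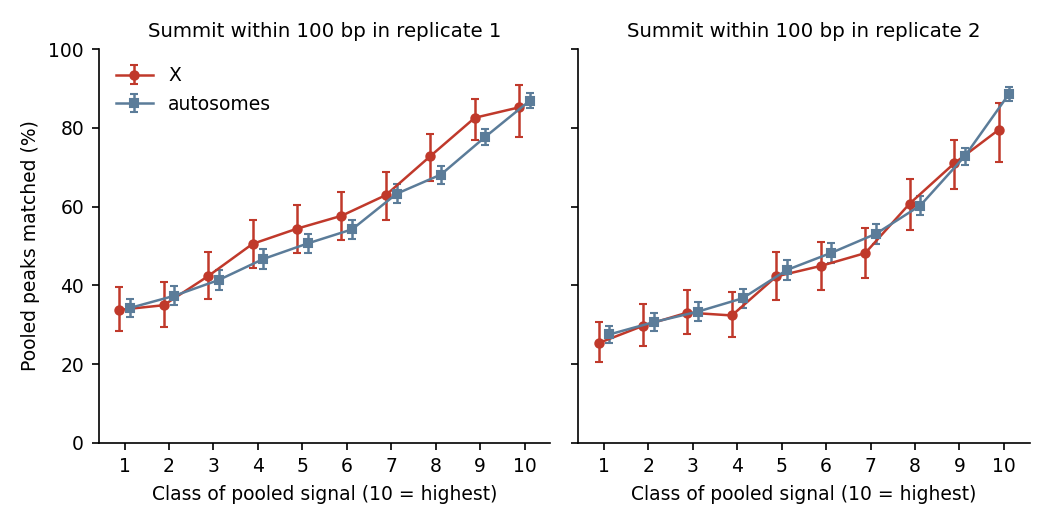
Share of pooled peaks with a summit within 100 bp in replicate 1 (left) and replicate 2 (right), by class of pooled signal, from 1 (lowest) to 10 (highest), for X and the autosomes; bars are exact 95% binomial intervals. The share rises with signal in both, and X falls below the autosomes in the highest class of replicate 2, at 79.5% against 88.7%.

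X summits were richer in G and C than their surroundings. GC content in 200 bp around the summit averaged 38.9% on X (SD 9.68 over 2506 peaks), against 38.4% on the autosomes. The windows 1000 bp to each side averaged 35.9% on X, a difference of 3.02 percentage points (SE 0.206 over peaks), where the autosomes differed by 1.96 (SE 0.0760). By context X summits in exons had 41.7% and intergenic ones 36.2%, near the 41.4% and 36.4% on the autosomes. The 22 X peaks of the reproducible set had 43.4% (SD 8.44), and the 251 autosomal peaks of the set had 41.3% (SD 7.26). In the replicates' own lists X averaged 38.1% in replicate 1 and 37.8% in replicate 2, against 38.1% and 37.7% on the autosomes. X exceeded the autosomes by less in the list of replicate 2 than in the pooled list and not in that of replicate 1.

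Protein-coding genes of X were at a peak less often than autosomal ones, 552 of 2731 genes (20.2%, 18.7 to 21.8) against 4761 of 17242 (27.6%, 26.9 to 28.3), counting a summit within 500 bp of any annotated start. The count was 637 genes on X with the replicate 1 list and 589 with that of replicate 2. On the autosomes it was 4853 and 5220. Against these shares, 17 lists of genes typical of worm tissues and of X were read, and most had too few members on X for their intervals to leave the share over all X genes.

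The genes that count X chromosomes or carry dosage compensation were among them. Of 6 sex determination and dosage genes on X, 2 were at a peak. These were ceh-39, a homeobox gene that acts as an X signal element (43.6 pooled, summit 224 bp from the start, matched in both replicates), and sdc-2, which directs the dosage compensation complex to X (39.3 pooled, 460 bp from the start). The sdc-2 summit was matched in replicate 2 at 4 bp, while the nearest replicate 1 summit was 688 bp away.

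For lists of somatic genes the shares ran to both sides of the share over all X genes, with intervals that included it. Of the 5 yolk protein genes on X, 1 was at a peak, vit-2 (48.4 pooled, matched in replicate 2 only). Of 11 muscle genes 4 were, led by act-4, an actin gene (39.2 pooled, matched in replicate 2 only). Of 34 neuropeptide genes 10 were (29.4%, 15.1 to 47.5), led by nlp-66 (45.4) and ins-39 (40.2 at its start, separate from the intergenic peak above). Of 30 ligand-gated ion channel genes 5 were, led by the glutamate receptor gene glr-7 (46.3), and of 21 potassium channel genes 2, twk-22 (31.8) and slo-2 (24.3). The peaks at glr-7, twk-22 and slo-2 were matched in replicate 1 only. That at slo-2 had rank 17743 among the nuclear peaks, near the lowest signal of the list, 23.6. Of 30 cuticle collagen genes 8 were (26.7%), led by col-180 (46.8), and of 27 nuclear hormone receptor genes 3, led by nhr-45 (43.1).

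Homeobox genes encode transcription factors, and chemoreceptor genes encode receptors for odours and tastes. Of 26 homeobox genes on X 9 were at a peak (34.6%, 17.2 to 55.7), against 12 of 67 on the autosomes (17.9%, 9.61 to 29.2), led by ceh-39, ceh-54 (39.6) and ceh-37 (38.3). These intervals overlap, and the lists of replicates 1 and 2 gave 12 and 8 of the 26. Of 34 chemoreceptor genes on X 0 were (up to 10.3%), against 115 of 1331 on the autosomes (8.64%), although the replicate lists gave 2 and 6 of the 34. Heat shock genes had 2 of 5, hsp-3 and hsp-25 (26.9, matched in replicate 2 only). The list of germ line RNA regulators, drawn by gene symbol and not by where a gene acts, had 2 of 5. These were puf-9, a Pumilio-family gene (54.4), and meg-4, a P granule gene (40.5), both matched in replicate 2 only. The puf-9 summit lay 298 bp from its start and 56 bp from that of the non-coding RNA gene W06B11.7. The ribosomal protein gene rpl-11.2 was at a peak (30.4), 1 of 2 on X against 50 of 78 on the autosomes. The beta-catenin gene bar-1 was too, 1 of 4 signalling genes. Its peak had a signal of 25.2 and rank 16359, near the lowest signal of the list, and was matched in replicate 1 only. Meiotic chromosome genes (0 of 1), C-type lectins (0 of 3) and cytochrome P450 genes (0 of 7) had none. No list on X had an interval that left out the share over all X genes, 20.2%, apart from the chemoreceptors.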

How the data were processed

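Peak lists of REC-8::GFP ChIP-seq in 1 group of 2 biological replicates were used. The lists were deposited by the authors in narrowPeak format on ce11, a relaxed list per replicate, another for both replicates together and a reproducible set chosen by irreproducible discovery rate (IDR) analysis, per the notes deposited with the files. Their column 7, the signal, is the authors' own value per peak, deposited with no stated scale. For the aligner, the peak caller and its settings, nothing is given in the sources used here. Without read counts, depth is unknown. The ce10 files were not used, for lack of a ce10 annotation.

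Summits were placed on WBcel235 with the Ensembl release 115 annotation, in which 46888 of 46926 genes had a name, using Python 3.11.15, numpy 2.4.6, pandas 2.3.3, scipy 1.17.1 and matplotlib 3.10.9. Each summit received 1 of 5 contexts in the order protein-coding start, other non-coding RNA start, exon, intron, intergenic, with 500 bp around starts, and was matched to other lists within 100 bp. Placement and matching were tested on simulated data. Named genes were those nearest to the 20 X peaks of highest signal and to every X peak of the reproducible set, and up to 3 per gene list. Members and lists were chosen with earlier results of these data known. Genes at the core, the shared stretch and the preceding base were added after values were seen. Alternatives changed the windows, the lists and the match, as given in the closing section.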

Additional observations from a re-analysis of the deposited data

How the results depend on the processing

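The ratio of X to autosomal peaks per Mb ranged from 0.750 (without replicate 1) to 0.854 (without replicate 2), was 0.670 among peaks at or above the median signal and 0.408 in the reproducible set, and turned to 1.02 per protein-coding gene. Those 2 subsets held 1096 and 22 X peaks. The ratio of signal was 0.944 with means. The central share of X was 32.7% without replicate 1 and 32.7% without replicate 2 (32.68 to 32.73), 30.9% with small RNA windows of 250 bp and of 1000 bp (30.92 and 30.87), and 30.6% at or above the median signal. The share at protein-coding starts ran from 23.1% to 23.5% with 1 replicate left out, was 25.9% at or above the median signal, 13.0% and 41.3% with start windows of 250 and 1000 bp, and 19.9% with non-coding RNA genes counted first. Matches in replicate 1 were 45.1% within 50 bp, 63.6% within 200 bp, 67.9% with any overlap and 70.3% at or above the median signal. Matches in replicate 2 were 34.4%, 51.7%, 57.3% and 58.2% under the same settings. GC content at X summits was 38.2% in 400 bp and 37.8% to 38.1% with 1 replicate left out. Over all 17 gene lists together, 31 genes were at an X peak with a 250 bp window and 85 with 1000 bp. The MEX core at the 22 highest X peaks, an alternative chosen after seeing the data, was at 9 in each replicate's list and at 10 with a small RNA window of 1000 bp or a 400 bp sequence window. The cause of each shift was not tested, other than that wider windows and limits take in more. Leaving out a replicate here means the other replicate's list alone. No paired analysis was possible because the samples form 1 group. Depth is unknown, which limits what an unmatched peak can show.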
